A study of Mus musculus with 6 samples.

Results

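The G2 and mitosis genes are 39 mouse genes whose products carry a cell from the end of DNA replication through chromosome segregation to cell division. They were chosen by name, matched by symbol to the Ensembl identifiers of the count tables, and all 39 were found among the 46983 genes listed. They were read in 6 RNA-seq libraries of myeloid colonies, 3 labelled wild type (WT1 to WT3, by replicate number) and 3 labelled Psip1 knockout (KO1 to KO3). Psip1 encodes LEDGF, a protein that binds active chromatin and anchors the MLL and menin complex there. Both groups were C57BL/6 mice aged 8 to 11 weeks. Marrow progenitors, left after mature blood cells were removed, were plated in methylcellulose that contained the cytokines IL-3, IL-6 and mouse SCF, and their colonies were collected on days 6 to 7. The series design gives the WT mice as PsipFl/Fl, which carry a floxed allele, and the KO mice as PsipVav/Vav. The Vav promoter is active across blood cells, and no Cre line is named in the sources used here. No source used here says that each library is a mouse of its own, so the p-values below rest on the scatter among these 6 libraries, some of which may be technical.

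Mitosis is run by waves of kinase activity and protein destruction. Cyclin A and cyclin B switch on the kinase CDK1, Polo and Aurora kinases build the spindle, the kinetochore complexes hold chromosomes to it, and the anaphase-promoting complex destroys cyclin B so that the cell can divide. Transcription of these genes peaks together in G2, under the MuvB complex with B-MYB and FOXM1, and in resting cells the DREAM form of that complex holds them down. In marrow cultures the genes are read from dividing cells and are silent in mature neutrophils. In bulk RNA, fewer dividing cells and less of these transcripts per cell cannot be told apart.

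The libraries differed in depth and content. Reads on genes numbered from 7056614 to 15569088 in 5 libraries and 27909 in WT3, so that 1 read there equals 29.9 CPM (normalised counts per 1000000 gene reads, with library sizes adjusted by edgeR's TMM). With 0 reads a gene of WT3 could still stand at 89.6 CPM. Levels in WT3 are given below in reads, and the other 5 libraries, of over 1000000 gene reads each, are called deep. KO2 stood apart too, with 15.7% of its gene reads from mitochondrial genes, against 1.26% to 1.84% in the other deep libraries and 9.52% in WT3. Psip1 itself measured 89.3 CPM in WT1, 70.0 in WT2, 14.8 in KO1, 17.6 in KO2 and 16.3 in KO3, with 3 reads in WT3. All KO libraries lay below all WT libraries (log2 fold change -2.32, SE 0.32, adjusted p = 0.0599 by edgeR), and the count takes in the whole gene, also exons outside a deleted stretch. The colonies held myeloid RNA in both genotypes: mature neutrophil markers summed to 35961 to 94852 CPM and monocyte and macrophage markers to 5673 to 14032 CPM in the deep libraries, while B cell markers summed to 0.660 to 9.01 CPM, erythroid ones to 20.7 to 127 CPM, T and NK cell ones to 11.8 to 147 CPM, those of stroma and endothelium to 131 to 248 CPM and those of megakaryocytes to 297 to 855 CPM.

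All 39 genes were read in every deep library and all were tested, and none passed the test between the genotypes. Across the deep libraries their counts ran from 135 to 15150 reads. By edgeR's quasi-likelihood test over 12292 genes, 0 of the 39 passed an adjusted p of 0.05 (0% of all genes tested passed it), 0 had an unadjusted p under 0.05 (1.45% of all genes tested had, and 0.212% had with a lower level in KO), and each adjusted p was 1. DESeq2 and limma-voom also called 0 of the 39, and gave 0 of them an unadjusted p under 0.05. The fitted differences were small and mostly on 1 side: 33 of 39 had a negative log2 fold change (KO minus WT), which is 84.6% beside 48% of all genes tested, and the median was -0.22 beside 0.01. This count moved with single libraries. It was 21 of 39 without WT2, 25 of 39 without KO2 and 39 of 39 without WT3, and under other scalings, filters and tools it ran from 31 to 39.

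**Figure D1:**
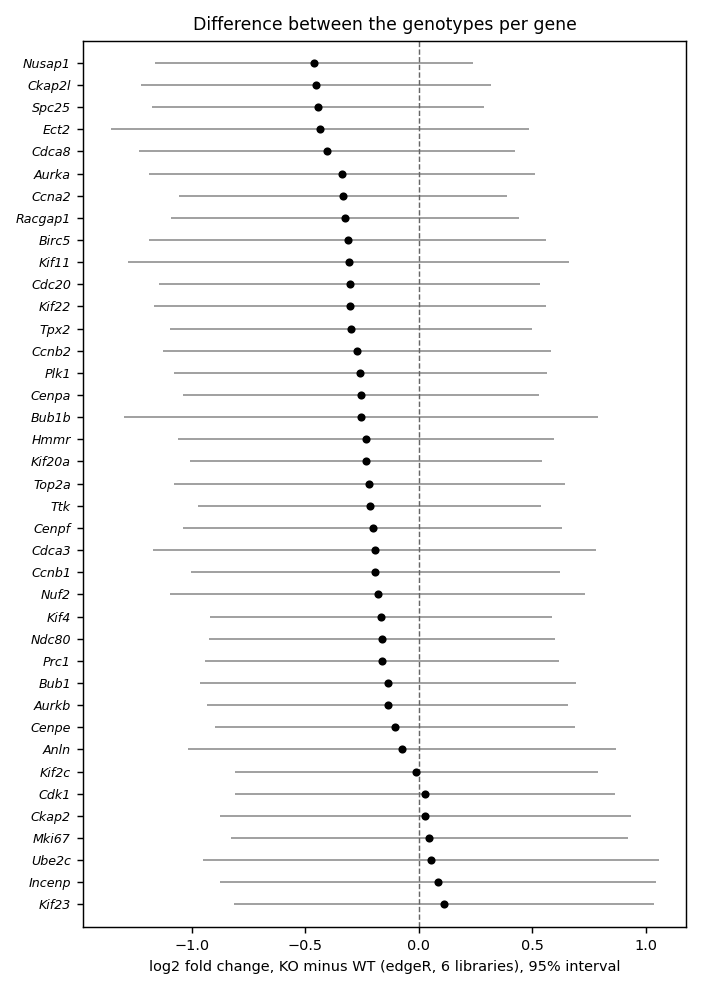
Log2 fold change (KO minus WT, horizontal axis) of each of the 39 genes (vertical axis) from edgeR over all 6 libraries; points are estimates and bars 95% intervals. Every interval crosses 0, and the estimates run from -0.46 (Nusap1) to 0.11 (Kif23).

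The precision of these libraries bounds what could be seen. The 95% intervals reached down to between -1.36 and -0.81 and up to between 0.24 and 1.06 on the log2 scale. A log2 fold change of -1 lay inside the interval for 25 of the 39 genes and a log2 fold change of 1 for 3, while 11 intervals lay wholly between these sizes. For those 25 genes a difference of -1 could not be told from 0. For the 6 genes with a positive estimate (Kif23, Incenp, Ube2c, Mki67, Ckap2 and Cdk1) the mean of the KO libraries was nonetheless below that of the 2 deep WT libraries. Without WT3, which held few reads, all 6 estimates were negative.

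The level of the whole set varied as much between libraries of 1 genotype as between genotypes. The 39 genes took 0.564% of the gene reads of WT1, 0.660% of WT2 and 0.401% of WT3, beside 0.617% of KO1, 0.362% of KO2 and 0.501% of KO3. The 112 reads behind the share of WT3 give a 95% Wilson interval of 0.334% to 0.483%, which covers counting error only. The groups overlapped: WT3 lay below KO1 and KO3, and KO1 lay above WT1. With mitochondrial reads taken out of the total, the share of KO2 was 0.430%, beside 0.444% in WT3 and 0.509% to 0.668% in the others. Mki67 and Top2a alone supplied 23.3% to 31.4% of the reads of the set in the deep libraries.

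**Figure D2:**
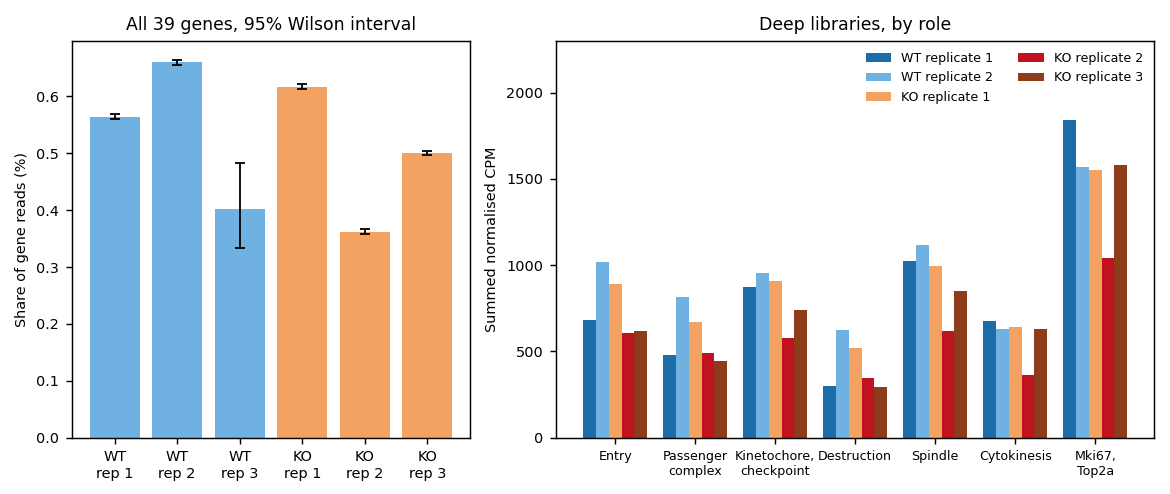
Left, share of gene reads (%) taken by the 39 genes in each library, with 95% Wilson intervals; right, summed normalised CPM of each role group in the 5 deep libraries. WT2 has the highest share (0.660%) and KO2 the lowest (0.362%), and WT3 has the widest interval.

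KO2 held the lowest level among the deep libraries for 28 of the 39 genes, which is 71.8% beside 27.2% of all genes tested. KO3 was lowest for 10 and WT1 for 1. At the top stood WT2 for 20 genes, WT1 for 14, KO1 for 4 and KO2 for 1. The highest deep library exceeded the lowest by 1.40 to 3.25 times, with a median of 1.94. Set side by side, the median log2 ratio over the 39 genes was 0.26 for WT2 over WT1, -0.71 for KO2 over KO1 and -0.32 for KO3 over KO1. The KO over WT medians ran from -0.80 (KO2 over WT2) to 0.13 (KO1 over WT1), and 5 of the 6 such pairs were negative. KO3 lay below WT1 for 38 of the 39 genes (median -0.17) and KO1 below WT2 for 28 (median -0.15). KO2 lay below WT2 for 38 and below WT1 for 31, KO3 below WT2 for 31, and KO1 above WT1 for 24. Inside KO, KO2 likewise lay below KO1 for 38. Over 8922 protein-coding genes with a mean of at least 10 CPM, the median was -0.008 for KO3 over WT1 and -0.013 for KO1 over WT2. The medians of the 39 stood at percentiles 19.1 and 30.9 of the ratios of those genes. They stood at percentile 8.81 for KO2 over WT2, 61.1 for KO1 over WT1 and, inside KO, 8.54 for KO2 over KO1. Over 2294 genes the deviations from the group means were correlated between some libraries of different numbers. The values were 0.67 for WT1 and KO3, 0.34 for WT2 and KO1 and 0.31 for WT3 and KO2. Other pairs of different numbers were at 0.12 (WT3 and KO1), -0.14 (WT2 and KO3) and -0.38 (WT1 and KO2). Each deviation was taken from the mean of its own group, so these correlations are tied to each other and are not separate matches. Medians inside a genotype thus reached a size that 5 of the 6 medians between genotypes did not exceed. The mitochondrial share of KO2 moved with its low levels, and its part in them was not tested.

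In 6 genes every KO library lay below both deep WT libraries: Nusap1, Ckap2l, Kif11 and Kif4 of the spindle, the cyclin gene Ccnb1, and Top2a. That is 15.4% of the 39, beside 3.87% of all genes tested, and for 0 of the 39 did every KO library lie above both deep WT libraries (4.79% of all genes tested). With WT3 included, Nusap1 alone kept the groups apart, 1 of 39 beside 0.976% of all genes tested. It had 4 reads in WT3, and 3 would have made the groups overlap. The count of 6 moved with single libraries, to 25 without WT1, 15 without WT2 and 23 without KO1, where fewer libraries have to be ordered. These genes were named for that order after their values were seen.

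**Figure D3:**
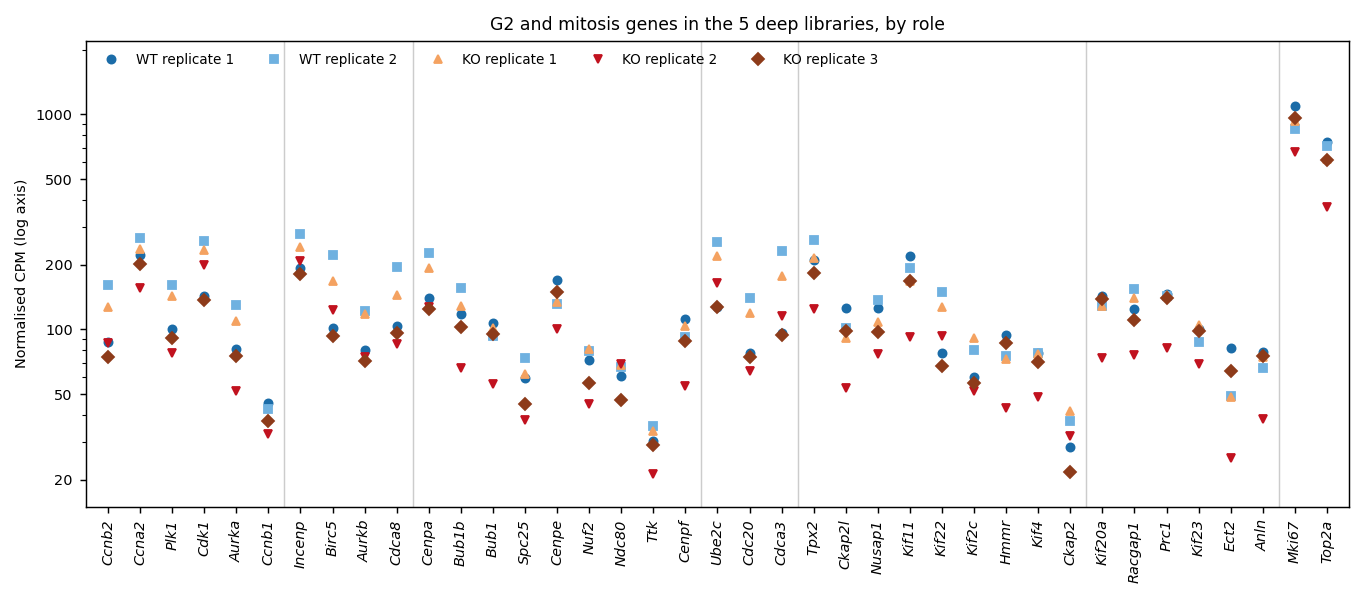
Normalised CPM (log axis) of each of the 39 genes in the 5 deep libraries; vertical lines part the 7 role groups, and genes stand in order of their level per kb within a group. KO2 is lowest for 28 genes, and WT2 and KO1 stand above WT1 and KO3 for genes such as Cdca3, Birc5 and Ube2c.

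The promoters of these genes share short sequences that the choice by name did not use. CCAAT is the letters bound by the factor NF-Y, and TTTGAA is the core of the cell cycle genes homology region, the element through which the MuvB complexes act. Windows of 300 bases, from 250 before to 50 after an annotated start, were taken from RefSeq (GRCm38.p6). They covered 34 of the 39 genes, without Aurkb, Incenp, Ccna2, Kif20a and Tpx2. Such a start can lie inside the GENCODE gene bounds used for the other coordinates. On the minus strand, the Kif2c window ends at 117179022 and the gene at 117182639. The Cdca8 window ends at 124937167 and the gene at 124939311. CCAAT, on either strand (reverse ATTGG), was found in 28 of 34 (82.4%), beside 37.4% of 32851 promoters. TTTGAA (reverse TTCAAA) was also found in 28 of 34 (82.4%), beside 17.9% of all promoters, and the 2 strings together in 25 of 34 (73.5%), beside 6.95%. The related TTTAAA, its own reverse, was found in 9 of 34 (26.5%), beside 13.2%, and TTCCCGC (reverse GCGGGAA), an E2F-like string, in 0 of 34 beside 4.6%. Matches may overlap each other, as 2 CCAAT matches on opposite strands do in Ube2c, and Ect2 and Prc1 have 2 overlapping windows each and were counted once.

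The place of TTTGAA was narrow. In the 28 genes that held it, the match nearest the 3′ end began within 50 bases on either side of the start in 25 (89.3%), beside 27.6% of the 5878 promoters with the string. A match is a description of letters and not a shown binding site. The 6 windows below were chosen to show the range. Ccnb2, the destruction genes Cdc20 and Ube2c, and Top2a hold both strings, Ccnb1 holds CCAAT and TTTAAA but not TTTGAA, and Nusap1, the gene of lowest p, holds none of the 3. Capitals mark a match to any of these strings on either strand, and each sequence reads 5′ to 3′ along its gene in GRCm38.p6.
Ccnb2, chr9:70421505-70421804, minus strand: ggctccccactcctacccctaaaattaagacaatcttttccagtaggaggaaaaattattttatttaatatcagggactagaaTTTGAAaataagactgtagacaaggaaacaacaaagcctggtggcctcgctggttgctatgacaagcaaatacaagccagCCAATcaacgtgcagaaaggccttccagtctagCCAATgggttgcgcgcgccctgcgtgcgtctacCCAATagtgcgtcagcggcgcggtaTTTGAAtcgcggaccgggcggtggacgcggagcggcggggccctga
Cdc20, chr4:118437294-118437593, minus strand: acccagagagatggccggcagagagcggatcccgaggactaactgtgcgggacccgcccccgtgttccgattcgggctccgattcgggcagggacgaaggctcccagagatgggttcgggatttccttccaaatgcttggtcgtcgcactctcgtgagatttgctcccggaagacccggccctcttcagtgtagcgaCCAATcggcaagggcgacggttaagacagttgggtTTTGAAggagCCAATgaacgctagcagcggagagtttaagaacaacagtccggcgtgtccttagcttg
Ube2c, chr2:164769679-164769978, plus strand: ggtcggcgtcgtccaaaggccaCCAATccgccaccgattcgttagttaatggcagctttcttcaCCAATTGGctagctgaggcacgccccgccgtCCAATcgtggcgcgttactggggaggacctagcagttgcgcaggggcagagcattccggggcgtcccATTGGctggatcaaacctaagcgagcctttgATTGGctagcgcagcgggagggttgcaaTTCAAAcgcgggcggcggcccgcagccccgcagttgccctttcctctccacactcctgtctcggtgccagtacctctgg
Top2a, chr11:99024140-99024439, minus strand: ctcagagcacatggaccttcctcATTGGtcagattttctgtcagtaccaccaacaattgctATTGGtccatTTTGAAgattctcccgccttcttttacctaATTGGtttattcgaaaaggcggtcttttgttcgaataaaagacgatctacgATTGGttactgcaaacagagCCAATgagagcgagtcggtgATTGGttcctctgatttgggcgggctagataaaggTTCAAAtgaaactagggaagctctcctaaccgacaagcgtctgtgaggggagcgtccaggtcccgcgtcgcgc
Ccnb1, chr13:100786437-100786736, minus strand: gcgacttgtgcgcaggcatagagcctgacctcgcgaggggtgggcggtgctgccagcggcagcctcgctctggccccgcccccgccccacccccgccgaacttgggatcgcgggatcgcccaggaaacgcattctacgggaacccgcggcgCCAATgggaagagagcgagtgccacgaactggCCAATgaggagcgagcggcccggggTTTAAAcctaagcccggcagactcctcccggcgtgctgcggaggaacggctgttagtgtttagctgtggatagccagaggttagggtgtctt
Nusap1, chr2:119618048-119618347, plus strand: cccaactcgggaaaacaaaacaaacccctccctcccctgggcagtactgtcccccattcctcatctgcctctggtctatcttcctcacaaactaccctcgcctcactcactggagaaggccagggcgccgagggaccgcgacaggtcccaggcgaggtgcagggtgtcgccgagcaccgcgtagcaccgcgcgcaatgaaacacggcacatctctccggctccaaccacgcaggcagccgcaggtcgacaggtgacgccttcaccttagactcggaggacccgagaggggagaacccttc

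Entry into mitosis rests on 6 of the genes, and their estimates ran from -0.34 to 0.03. Cdk1, the kinase that drives mitosis (chromosome 10, 69335146 to 69352938, GRCm38), measured 143 CPM in WT1, 259 in WT2, 233 in KO1, 200.1 in KO2 and 138 in KO3, with 4 reads in WT3. WT1 and KO3 were the low libraries and the groups overlapped (log2 fold change 0.03, SE 0.38, 95% interval -0.81 to 0.87). Its partner cyclin B1, Ccnb1 (chromosome 13, 100778650 to 100786570), measured 45.7 CPM in WT1, 42.5 in WT2, 38.5 in KO1, 32.6 in KO2 and 37.6 in KO3, with 0 reads in WT3. Here the deep groups did not overlap, yet the KO mean of 36.2 ± 3.17 CPM (SD, n = 3) was close to the lower WT library (log2 fold change -0.19, SE 0.37).

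Ccna2, which encodes cyclin A2 (chromosome 3, 36564865 to 36572150), measured 223 CPM in WT1, 267 in WT2, 238 in KO1, 156 in KO2 and 201 in KO3, with 9 reads in WT3. KO2 was low and KO1 lay between the WT libraries (log2 fold change -0.33, SE 0.33, 95% interval -1.05 to 0.39). Aurka, the Aurora kinase of centrosomes (chromosome 2, 172356190 to 172370535), measured 80.9 CPM in WT1, 129.5 in WT2, 109.7 in KO1, 51.9 in KO2 and 75.4 in KO3, with 2 reads in WT3. WT2 and KO1 were high and KO2 was low (log2 fold change -0.34, SE 0.39, 95% interval -1.19 to 0.51). Ccnb2, the other B cyclin, and the Polo kinase gene Plk1 had estimates of -0.27 and -0.26. Both were highest in WT2, at 162 and 160.2 CPM.

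The chromosomal passenger complex places the kinase Aurora B on centromeres and later on the midzone of the spindle. All 4 of its genes were highest in WT2. Cdca8, which encodes the subunit borealin (chromosome 4, 124918465 to 124939311), measured 104 CPM in WT1, 194 in WT2, 145 in KO1, 85.6 in KO2 and 96.7 in KO3, with 4 reads in WT3. KO1 lay above WT1, so that the groups overlapped (log2 fold change -0.40, SE 0.38, 95% interval -1.23 to 0.42). Birc5, which encodes survivin (chromosome 11, 117849251 to 117855743), measured 101 CPM in WT1, 222 in WT2, 169 in KO1, 124 in KO2 and 93.7 in KO3, with 5 reads in WT3. It spanned 2.37 times between its highest and lowest deep library, WT2 and KO3 (log2 fold change -0.31, SE 0.40, 95% interval -1.19 to 0.56). The kinase gene Aurkb and the scaffold gene Incenp had estimates of -0.14 and 0.09.

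Among the 9 genes of the kinetochore and the spindle checkpoint, all 9 estimates were negative, from -0.44 to -0.10, and 0 passed the test. Spc25, a subunit of the NDC80 complex that grips microtubules (chromosome 2, 69193895 to 69206194), measured 59.5 CPM in WT1, 73.9 in WT2, 62.2 in KO1, 38.1 in KO2 and 45.3 in KO3, with 2 reads in WT3. KO1 lay above WT1 (log2 fold change -0.44, SE 0.33, 95% interval -1.17 to 0.29). Cenpa, the histone H3 variant that marks centromeres (chromosome 5, 30666777 to 30674830), measured 140.5 CPM in WT1, 226 in WT2, 193 in KO1, 128 in KO2 and 125 in KO3, with 5 reads in WT3. Its 2 high libraries were again WT2 and KO1 (log2 fold change -0.26, SE 0.36, 95% interval -1.04 to 0.53).

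The other NDC80 subunits Nuf2 and Ndc80 had estimates of -0.18 and -0.16. Ndc80 was the 1 gene of the 39 with its highest deep level in KO2, at 69.1 CPM. The checkpoint kinase genes Bub1 and Ttk were at -0.14 and -0.22 and Bub1b, which encodes the checkpoint protein BUBR1, at -0.25. The kinetochore motor gene Cenpe and the large kinetochore protein gene Cenpf were at -0.10 and -0.20, and both were highest in WT1.

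Protein destruction at the end of mitosis is represented by 3 genes, all highest in WT2. Cdc20, the activator of the anaphase-promoting complex (chromosome 4, 118432901 to 118437352), measured 77.7 CPM in WT1, 139.6 in WT2, 119.8 in KO1, 64.2 in KO2 and 74.2 in KO3, with 3 reads in WT3. WT2 and KO1 were high and the other 3 deep libraries low, across both genotypes (log2 fold change -0.30, SE 0.38, 95% interval -1.14 to 0.54). Cdca3, which promotes entry into mitosis and is itself destroyed after it (chromosome 6, 124829547 to 124833701), measured 96.4 CPM in WT1, 232 in WT2, 178 in KO1, 115 in KO2 and 94.4 in KO3, with 2 reads in WT3. WT2 stood 1.27 log2 units above WT1, a wider gap than the fitted genotype difference (log2 fold change -0.19, SE 0.45, 95% interval -1.17 to 0.78). Ube2c, the ubiquitin-conjugating enzyme of that complex, was at 0.05.

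The spindle group held the gene of smallest p, Nusap1, and 4 of the 6 genes whose deep groups did not overlap. Nusap1, which bundles spindle microtubules (chromosome 2, 119618298 to 119651244), measured 125 CPM in WT1, 137 in WT2, 109 in KO1, 76.6 in KO2 and 96.9 in KO3, with 4 reads (119 CPM) in WT3. Every KO library lay below every WT library, and the estimate was the most negative of the 39 (log2 fold change -0.46, SE 0.32, 95% interval -1.16 to 0.24, unadjusted p = 0.176, adjusted p = 1 by edgeR). For WT3 that order hangs on 1 read, as 3 reads would stand at 89.6 CPM, below KO1 and KO3. Ckap2l, which encodes a protein of spindle poles (chromosome 2, 129268210 to 129297212), measured 126 CPM in WT1, 102 in WT2, 91.2 in KO1, 53.3 in KO2 and 98.2 in KO3, with 3 reads (89.6 CPM) in WT3. KO2 was the low library, and the highest KO library lay just under WT2 (log2 fold change -0.45, SE 0.35, 95% interval -1.22 to 0.32).

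Kif11, the motor that pushes spindle poles apart, measured 220.5 CPM in WT1, 194 in WT2, 168 in KO1, 91.9 in KO2 and 168 in KO3. KO2 stood further below the other KO libraries than these stood below WT, and WT3 held 1 read (estimate -0.31). Kif4, a chromosome-bound motor gene on the X chromosome, measured 77.9 CPM in WT1, 77.8 in WT2, 77.0 in KO1, 48.6 in KO2 and 70.8 in KO3, so that KO1 was within 1 CPM of both WT libraries (estimate -0.17). Tpx2, which activates Aurora A, was at -0.30, the chromosome motor gene Kif22 at -0.30, the microtubule depolymerase gene Kif2c at -0.01, Hmmr at -0.23 and Ckap2 at 0.03.

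Cytokinesis, the division of the cell body, was covered by 6 genes, all lowest in KO2. Ect2, which activates the GTPase RhoA at the cleavage furrow (chromosome 3, 27097222 to 27153878), measured 81.7 CPM in WT1, 49.0 in WT2, 48.7 in KO1, 25.2 in KO2 and 64.5 in KO3, with 1 read in WT3. Its span of 3.25 times was the widest of the 39, and WT2 lay beside KO1 and below KO3 (log2 fold change -0.43, SE 0.42, 95% interval -1.36 to 0.49). Racgap1, a subunit of centralspindlin (chromosome 15, 99620496 to 99651656), measured 125 CPM in WT1, 154 in WT2, 140.0 in KO1, 75.8 in KO2 and 111 in KO3, with 4 reads in WT3. KO1 lay between the WT libraries (log2 fold change -0.32, SE 0.35, 95% interval -1.09 to 0.44). Kif23, the motor of centralspindlin, was at 0.11, the midzone motor gene Kif20a at -0.23, the midzone bundler gene Prc1 at -0.16 and Anln, which encodes the furrow scaffold anillin, at -0.07.

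Mki67 and Top2a had the largest read counts. Mki67 encodes Ki-67, the coat of mitotic chromosomes and the standard marker of dividing cells (chromosome 7, 135689784 to 135716361), and measured 1099 CPM in WT1, 857 in WT2, 933 in KO1, 671 in KO2 and 965 in KO3, with 15 reads in WT3. KO1 and KO3 lay between the 2 deep WT libraries (log2 fold change 0.05, SE 0.40, 95% interval -0.83 to 0.92). Top2a encodes the topoisomerase that untangles sister chromosomes (chromosome 11, 98992943 to 99024189) and measured 744 CPM in WT1, 714 in WT2, 618 in KO1, 372 in KO2 and 615 in KO3, with 11 reads in WT3. Its deep groups did not overlap, and KO2 lay far under the other KO libraries (log2 fold change -0.22, SE 0.39, 95% interval -1.08 to 0.64).

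Per kb of exon length, Mki67 was the highest of the 39 at 89.9 ± 15.6 CPM per kb (SD, n = 5 deep libraries). Ccnb2 (70.1 ± 23.7), Ube2c (68.8 ± 21.7) and Top2a (68.0 ± 16.2) followed. The SD is between libraries that all genes share, and differences between genes were not tested. Cenpf was lowest, at 5.84 ± 1.43 CPM per kb. Exon length here is the union over all annotated transcripts, so that a gene with long rare transcripts is placed too low. Ccnb1, Ccnb2, Kif22 and Kif4 have annotated pseudogenes, reads shared with which would have been left out of the counts, and their levels are uncertain for that reason. Top2a shares 122 exonic bases with Gm23451 on the same strand, and reads there count for neither gene.

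A pattern among the 39 genes followed the length of the gene, in pairs of libraries inside a genotype and in pairs between genotypes. All 24 genes that were higher in WT2 than in WT1 were also higher in KO1 than in KO3, and 8 were lower in both comparisons. Across the 39 genes the 2 log2 ratios had a Pearson correlation of 0.91 and a Spearman correlation of 0.92, as a description of 4 libraries. Cdca3 was at 1.27 for WT2 over WT1, and Birc5, Ube2c and Kif22 were at 1.13, 0.99 and 0.95. At the other end stood Ect2 at -0.74, Cenpe at -0.38 and Mki67 at -0.36.

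**Figure D4:**
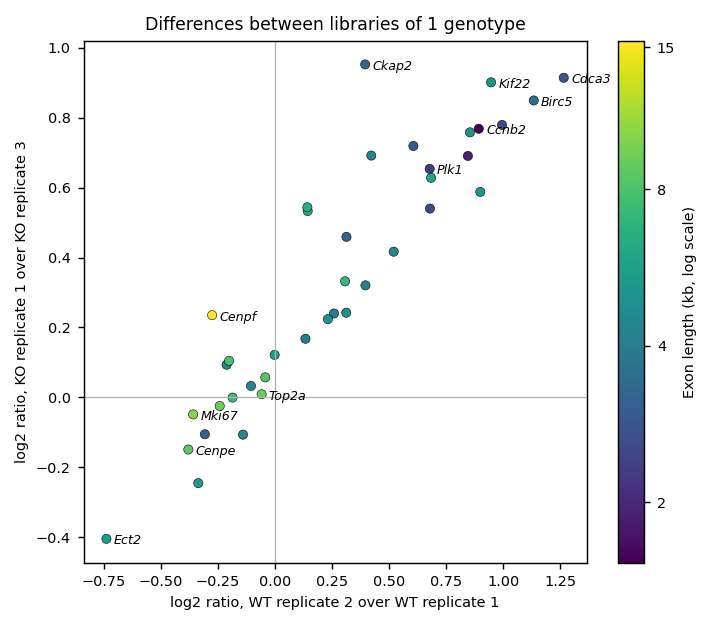
Each point is 1 of the 39 genes; the horizontal axis is the log2 ratio of WT2 over WT1, the vertical axis that of KO1 over KO3, and colour the exon length in kb on a log scale. The 2 ratios run together, from Ect2 at the lower left to Cdca3 at the upper right, and long genes such as Mki67, Cenpe and Top2a lie to the left.

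By exon length, the 13 shortest genes (1531 to 4083 bases) had a median log2 ratio of 0.68 for WT2 over WT1, and 12 of the 13 were higher in WT2. The 13 longest (5514 to 15433 bases) had a median of -0.06, and 4 of the 13 were higher. In KO1 over KO3 the medians of the same genes were 0.69 and 0.10. The Spearman correlation of the log2 ratio with length was -0.60 over the 39 genes for WT2 over WT1. The same trend ran over 8922 protein-coding genes, at -0.49. Between genotypes the correlation over the 39 genes ran from -0.50 (KO1 over WT1) to 0.62 (KO3 over WT2), and was -0.09 for KO3 over WT1. Inside KO it was 0.54 for KO3 over KO1 and -0.08 for KO2 over KO1. In the fitted genotype difference the shortest genes had a median of -0.30 and the longest of -0.17.

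Cell type markers moved with the same libraries. Genes of primary neutrophil granules, made by immature myeloid cells, summed to 2054 CPM in WT1, 9017 in WT2, 6858 in KO1, 2063 in KO2 and 1737 in KO3 (5 of 6 markers matched, none at 0 in all libraries). WT2 and KO1 were the libraries high in these genes and in short mitotic transcripts. The sum of stem and progenitor markers (6 of 6 matched, 4 tested) went the other way, at low levels. It was 87.2 CPM in WT1, 45.3 in WT2, 54.3 in KO1, 58.2 in KO2 and 64.9 in KO3, lowest in WT2 and KO1. The single markers did not share this order. Of the 4 tested, 2 were lowest in KO2, 1 in WT2 and 1 in KO1, while 2 were highest in KO2, 1 in WT1 and 1 in WT2. Mast cell and basophil markers, all 9 of 9 read, summed to 5284 CPM in WT1, 3898 in WT2, 2916 in KO1, 9157 in KO2 and 4318 in KO3. Mature neutrophil markers (9 of 9) summed to 45899 CPM in WT1, 94852 in WT2, 85273 in KO1, 40491 in KO2 and 35961 in KO3, so that WT2 and KO1 were high in these too. Monocyte and macrophage markers (10 of 10) summed to 14032 CPM in WT1, 6081 in WT2, 8910 in KO1, 5673 in KO2 and 13757 in KO3. That sum was highest in WT1 and KO3, but the single markers were split. Among the deep libraries, 4 of the 10 were highest in WT2, 3 in WT1, 2 in KO3 and 1 in KO2. The part of cell composition in the levels of the mitotic genes was not tested.

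The upstream regulators gave 0 calls, as did the whole test (0% of 12292 genes). Foxm1, the forkhead factor of G2 transcription, measured 109.9 CPM in both WT1 and WT2, 117 in KO1, 74.0 in KO2 and 96.7 in KO3, with 2 reads in WT3 (log2 fold change -0.11, SE 0.34). Mybl2, which encodes B-MYB, measured 40.9 CPM in WT1, 67.4 in WT2, 57.3 in KO1, 27.5 in KO2 and 43.7 in KO3, with 0 reads in WT3 (log2 fold change -0.23, SE 0.44). The MuvB subunit genes Lin9 and Lin54 were at 0.04 (SE 0.39) and -0.17 (SE 0.44). Of 21 such regulators 14 had a negative and 7 a positive estimate, with a median of -0.11, and 0 passed the test in either direction. Among all genes tested 48% had a negative estimate, and the median was 0.01.

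Other gene lists of the cell cycle had estimates on the same side. Of 45 further mitotic genes 38 had a negative estimate (median -0.23), of 21 condensin, cohesin and separase genes all 21 (median -0.21), of 16 subunits and regulators of the anaphase-promoting complex 11 (median -0.05), and of 32 DNA replication genes 29 (median -0.19). Over all genes tested, 48% had a negative estimate. In these lists 0 genes passed the adjusted threshold and 0 had an unadjusted p under 0.05, in either direction. Over all genes tested these shares were 0% and 1.45%. KO2 was the lowest deep library for 28 of the 45, 20 of the 21, 7 of the 16 and 18 of the 32. That share was 27.2% over all genes tested. The replication genes were highest in WT2 in 29 of 32 cases, with a summed level of 4404 CPM there against 2821 CPM in WT1.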

How the data were processed

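Polyadenylated RNA was turned into strand-specific libraries with a TruSeq kit, per the labels' protocols. The deposited values are read counts per gene in 7 files, 1 for each sequencing run, and those of the 2 runs of WT3 were added. Their layout is that of STAR's gene counter, in which a read mapped to several places counts for no gene. STAR 2.5.1b and the build GRCm38 are named per the submitters' processing notes, as is DESeq2, with no role given. Which annotation the authors counted on was not given. Column 4, counts of reads that lie opposite to the gene's strand, was used, as the kit reverses the strand. The 4 rows that name no gene were left out. They held 25.6% of reads in WT1, 28.2% in WT2, 47.8% in WT3, 28.6% in KO1, 39.9% in KO2 and 25.7% in KO3. Of 46983 genes, 46488 matched GENCODE M21 by identifier, which gave symbols, coordinates and exon lengths.

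Counts were filtered with filterByExpr, scaled by TMM and tested in R 4.3.3 with edgeR 4.0.16 (glmQLFit with robust estimation, glmQLFTest, two-sided) for genotype alone, over 12292 genes with Benjamini-Hochberg adjustment. Intervals are 95%. Alternatives used DESeq2 1.42.0, limma-voom 3.58.1, other scalings and filters, counts without strand, single runs, no mitochondrial genes, a replicate block and each library left out. The fit was also run on simulated data, and the outcome is not reported here. The 39 genes and all lists were chosen with earlier results of these data known. By rule all 39 genes are named, and values per library are given for Mki67, Top2a, Cdk1, Ccnb1 and the 2 genes of lowest p in each role group. The marker Azu1 was not matched by symbol. Protein sequences were not used here.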

Additional observations from a re-analysis of the deposited data

How the results depend on the processing

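Under 18 alternatives, 15 planned and 3 chosen after seeing the data (DESeq2, limma-voom and edgeR leaving out WT3, the last also KO2), 0 of the 39 genes were called, and 0 at an adjusted p of 0.1 in the reported test. The lowest unadjusted p of any of them was 0.0792, by limma-voom. The median log2 fold change stayed negative in all 18, from -0.40 to -0.06 with each library left out. The count of negative estimates ran from 21 (without WT2) to 39 (without WT3). The count of genes lower in every KO library than in both deep WT libraries was 6, 1 with WT3 included, and 6 to 25 with each deep library left out, where fewer libraries have to be ordered. Over all genes, 0 calls became 2 by library size only, 9 with no filter, 1 by DESeq2, 12 by DESeq2 leaving out WT3, and 0 to 5 with each library left out. The cause was not tested.

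The 39 genes had a changed sign in 81 of 702 values, and 11 genes in none. With DESeq2's size factors in edgeR, the values were Kif2c 0.021. Scaled by library size only, the values were Mki67 -0.021, Ckap2 -0.00095 and Cdk1 -0.039. With no filter on low counts, the values were Kif2c 0.022. By DESeq2, the values were Kif2c 0.052 and Anln 0.038. By limma-voom, the values were Ube2c -0.075, Mki67 -0.093, Ckap2 -0.068, Kif23 -0.018, Cdk1 -0.037, Incenp -0.10 and Lin9 -0.0086. By DESeq2 leaving out WT3, the values were Ube2c -0.17, Mki67 -0.21, Ckap2 -0.063, Kif23 -0.057, Cdk1 -0.092, Incenp -0.18 and Lin9 -0.040. By limma-voom leaving out WT3, the values were Ube2c -0.12, Mki67 -0.22, Ckap2 -0.091, Kif23 -0.069, Cdk1 -0.054, Incenp -0.16 and Lin9 -0.013. By edgeR leaving out WT3 and KO2, the values were Ube2c -0.14, Kif2c 0.061, Mki67 -0.049, Ckap2 -0.055, Anln 0.048, Cdk1 -0.12 and Incenp -0.16. With each library left out in turn, the lowest and highest values of the genes that changed sign were Anln -0.21 to 0.18, Aurka -0.64 to 0.044, Aurkb -0.40 to 0.21, Birc5 -0.60 to 0.22, Bub1 -0.28 to 0.093, Bub1b -0.46 to 0.082, Ccnb2 -0.52 to 0.24, Cdc20 -0.62 to 0.13, Cdca3 -0.48 to 0.55, Cdca8 -0.66 to 0.041, Cdk1 -0.14 to 0.49, Cenpa -0.49 to 0.076, Cenpe -0.24 to 0.19, Cenpf -0.39 to 0.042, Ckap2 -0.21 to 0.28, Ect2 -0.74 to 0.034, Foxm1 -0.27 to 0.048, Hmmr -0.43 to 0.033, Incenp -0.17 to 0.51, Kif20a -0.38 to 0.00061, Kif22 -0.59 to 0.087, Kif23 -0.047 to 0.35, Kif2c -0.30 to 0.25, Kif4 -0.29 to 0.010, Lin54 -0.45 to 0.45, Lin9 -0.089 to 0.33, Mki67 -0.19 to 0.38, Mybl2 -0.47 to 0.22, Ndc80 -0.26 to 0.029, Plk1 -0.55 to 0.10, Prc1 -0.29 to 0.065 and Ube2c -0.16 to 0.70.

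With the replicate number as a block, 13 genes were called, 0 of them among the 39, and the sign changed for Kif2c 0.090 and Cdca3 0.075. The numbers were not taken to pair the libraries, since the deviations of same-numbered libraries had correlations of -0.43, -0.10 and -0.38 over 2294 genes. Some libraries of different numbers had higher ones, 0.67 for WT1 and KO3, 0.34 for WT2 and KO1 and 0.31 for WT3 and KO2. The other such pairs were at 0.12 (WT3 and KO1), -0.14 (WT2 and KO3) and -0.38 (WT1 and KO2). All these correlations are tied to each other through the group means, and no fit was made on such pairs. Depth limits WT3 most, where 6 of the 39 genes had 0 reads.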
